A study of Mus musculus with 6 samples.

Results

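Neuronal RNA-binding proteins of the Elavl, Rbfox, Nova and Celf families were described by their transcript levels in cultured adult neural stem cells and progenitors of mice. The set holds 10 genes, Elavl2, Elavl3, Elavl4, Rbfox1, Rbfox2, Rbfox3, Nova1, Nova2, Celf3 and Celf4. They were chosen by name, with earlier results of these data known. All 10 were measured, among 19937 genes that had a probe set paired with a single gene. Nova1 alone had more than 1 such probe set, and the probe set with the highest mean over the arrays stands for it.

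Sirt1 inactive cultures came from NestinCre;Sirt1lox/lox mice, in which the Nestin promoter drives Cre recombinase in neural stem and progenitor cells, and the labels say that they lack active SIRT1. Control cultures came from Sirt1lox/lox mice with no Cre, so Cre and the loss of SIRT1 cannot be told apart. All mice were of the 129SV strain and 8 weeks old. The cells of both genotypes were grown with EGF and bFGF, first as neurospheres, then on poly-D-lysine, and were collected while dividing at passage 2. There are 3 arrays per genotype, called biological replicates, and the sources used here do not say how many mice stand behind each.

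Elavl2, Elavl3 and Elavl4 encode the neuronal Hu proteins HuB, HuC and HuD, which bind U-rich stretches of messenger RNAs and raise their stability and translation as progenitors turn into neurons. Rbfox proteins bind UGCAUG and Nova proteins bind YCAY clusters near alternative exons, and both families set the exons used in synaptic and channel transcripts. Celf3 and Celf4 bind GU-rich RNA and act on splicing, stability and translation in the brain. In the brain most of these proteins are enriched in neurons, while Rbfox2 is made by many cell types.

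The bases before the transcription starts of the 3 neuronal Elavl genes are shown because these genes had the widest spread over the arrays. The sequences are RefSeq's on GRCm38.p6, with 250 bases before the annotated start, given 5′ to 3′ on the gene's strand, and the capitals mark CCAAT and CAGCTG. They lie at chr9:22052024-22052273 (minus strand) for the single start of Elavl3, chr4:110287528-110287777 (minus strand) for the second of 3 separate starts of Elavl4, and chr4:91376497-91376746 (minus strand) for the second of 3 separate starts of Elavl2. These starts were picked after their letters were read.
Elavl3: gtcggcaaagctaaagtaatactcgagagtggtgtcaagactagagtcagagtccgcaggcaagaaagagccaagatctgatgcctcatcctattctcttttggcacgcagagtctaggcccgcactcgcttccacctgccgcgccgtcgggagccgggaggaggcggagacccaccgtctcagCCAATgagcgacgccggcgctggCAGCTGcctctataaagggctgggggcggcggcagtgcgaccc
Elavl4: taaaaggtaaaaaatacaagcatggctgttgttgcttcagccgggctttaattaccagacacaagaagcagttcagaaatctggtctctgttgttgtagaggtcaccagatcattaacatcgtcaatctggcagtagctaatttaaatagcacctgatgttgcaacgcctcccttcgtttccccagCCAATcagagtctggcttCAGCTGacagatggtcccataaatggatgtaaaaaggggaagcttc
Elavl2: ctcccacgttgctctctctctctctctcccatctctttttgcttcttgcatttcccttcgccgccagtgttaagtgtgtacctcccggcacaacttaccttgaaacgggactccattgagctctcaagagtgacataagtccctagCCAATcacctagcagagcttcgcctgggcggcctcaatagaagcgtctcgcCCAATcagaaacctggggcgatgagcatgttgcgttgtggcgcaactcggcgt

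CCAAT, searched also as ATTGG on the other strand, is the box that NF-Y binds, and CAGCTG, the same on both strands, is an E-box bound by basic helix-loop-helix factors. In Elavl3 the CCAAT began 66 bases and the CAGCTG 43 bases before the start. In this Elavl4 window they began 64 and 46 bases before it. The Elavl2 window held CCAAT at 104 and 53 bases and no CAGCTG. The first start of Elavl4 and the first of Elavl2 held neither, and the third start of each held CCAAT and no CAGCTG. Promoters of 8 of the 10 genes were in the table, with 15 starts more than 500 bases apart, of which 6 held CAGCTG and 8 held CCAAT. Among all 32851 promoter windows of the same length 13.0% held CAGCTG and 33.8% held CCAAT. These matches are a description of the letters in the windows.

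Values are log2 expression values made by RMA, a method that subtracts background, gives all arrays nearly the same distribution and sums up the probes of a probe set, so levels of different genes are not set against each other. Array medians lay between 7.36 and 7.39. Control replicate 3 stood apart, with a median absolute distance of 0.117 from the mean of the other arrays, against 0.059 to 0.089 for the other 5. Sirt1 (probe set 10369738) read 8.26, 8.33 and 8.25 in Sirt1 inactive cultures, against 8.73, 8.78 and 8.55 in control cultures. Those groups did not overlap, and the difference of -0.41 (SE 0.08) did not pass over all probe sets (limma, adjusted p = 0.959). The sources used here do not name the floxed exons, so a deletion of part of the gene need not show in this value.

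All 10 genes had a lower mean in Sirt1 inactive than in control cultures, by 0.06 to 0.44 on the log2 scale, with a median difference of -0.20. Over all measured genes the median difference was -0.02, and 61% had a difference below 0. None of the 10 passed a test of all 22961 probe sets (limma, Benjamini-Hochberg adjusted p = 0.959 for each, threshold 0.05), in a comparison that called 0% of the probe sets. At an unadjusted p under 0.05 limma gave 2 of the 10, Nova1 and Celf4, against 2.63% of all probe sets that were lower in Sirt1 inactive cultures by this rule. With the replicate number as a block the count was 4, adding Elavl4 and Celf3, against 5.08% of probe sets, and again none passed after adjustment. The labels do not say what arrays of the same number share, and the pairing was taken from these same values. The groups did not overlap for Celf4 alone, against 6.71% of probe sets that were lower without overlap. Each Sirt1 inactive array was below the control array of its number for 7 of the 10, against 20.7% of probe sets. In cultures of mixed cells, fewer cells of a type and less RNA per cell cannot be told apart.

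Control replicate 3 had the highest value of the 6 arrays for 8 of the 10 genes, against 37.8% of all measured genes. Without that array the 10 differences remained below 0, with a median of -0.08, against -0.01 for all genes. The part of this array in the differences was not tested further. In the plot of values by array, its triangle stands at the top of the Elavl and Nova panels.

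**Figure D1:**
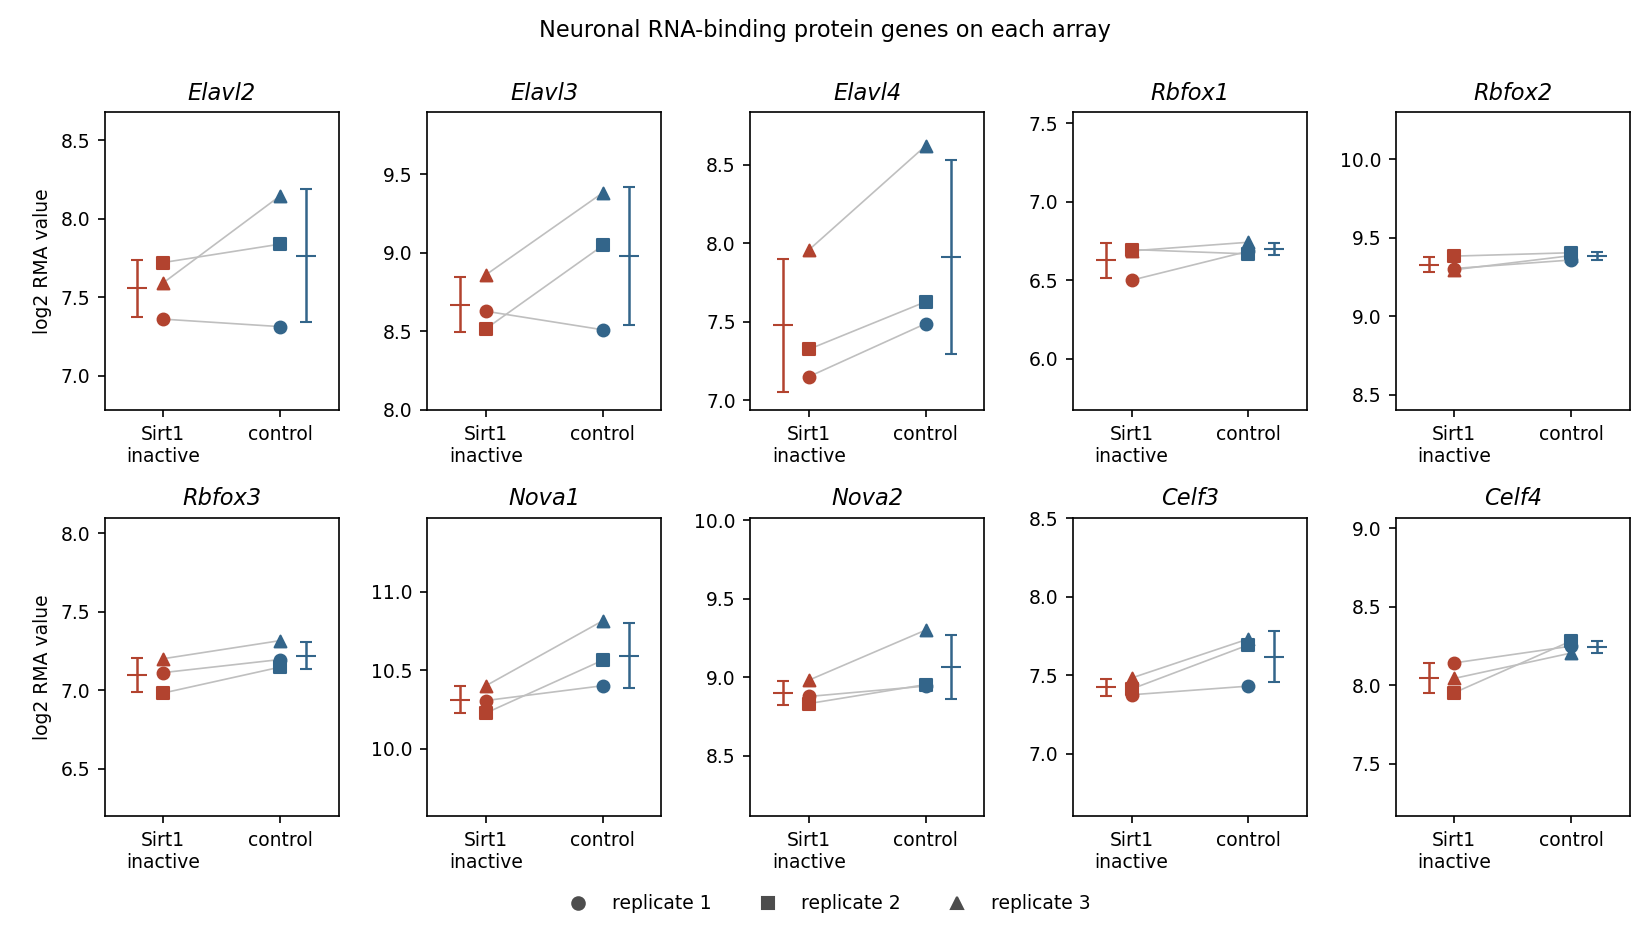
Log2 RMA value (vertical axis, the same span of 1.9 in every panel) of each gene in Sirt1 inactive (left, red) and control (right, blue) cultures, 1 symbol per array and a line between arrays of the same replicate number; the bars beside the symbols are mean ± SD (n = 3). The groups overlap in every panel except Celf4, and control replicate 3 reads highest for Elavl2, Elavl3, Elavl4, Rbfox1, Rbfox3, Nova1, Nova2 and Celf3.

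Elavl4, which encodes HuD, a protein of newborn and projecting neurons, had the widest range over the arrays, 1.47. Its values (probe set 10515095) were 7.15, 7.32 and 7.96 in Sirt1 inactive cultures, against 7.49, 7.63 and 8.62 in control cultures. Number 3 was the highest array in both genotypes, and the groups overlapped. The means were 7.48 ± 0.42 in Sirt1 inactive and 7.91 ± 0.62 in control cultures (SD, n = 3 each), a difference of -0.44 (SE 0.33, 95% interval -1.21 to 0.34). Within numbers 1, 2 and 3 the Sirt1 inactive array lay below the control array by 0.34, 0.30 and 0.66, in 3 of 3. With the number as a block the same difference had an SE of 0.09, with unadjusted p = 0.0035 and adjusted p = 0.656 (limma). Without control replicate 3 and with no block it was -0.08. In a blocked fit of numbers 1 and 2 only it was -0.32 (limma, unadjusted p = 0.0025, adjusted p = 0.236). So few arrays say little of the spread of Elavl4 itself, and that p drew mostly on the spread of all probe sets.

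Elavl3 encodes HuC, which appears in neurons soon after they are born. It read 8.63, 8.52 and 8.86 (probe set 10591706) in Sirt1 inactive cultures, against 8.51, 9.05 and 9.38 in control cultures. Control replicates 2 and 3 were above every Sirt1 inactive array, and control replicate 1 was the lowest of all. The difference was -0.31 (SE 0.21, 95% interval -0.81 to 0.19), and -0.11 without control replicate 3. By number it was 0.12 in number 1, -0.53 in number 2 and -0.52 in number 3.

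Elavl2, the gene of HuB, is made in neurons and, outside the brain, in germ cells. Its arrays (probe set 10514352) gave 7.36, 7.72 and 7.59 in Sirt1 inactive cultures, against 7.31, 7.84 and 8.15 in control cultures. As for Elavl3, control replicate 1 was the lowest array and the groups overlapped. A difference of -0.21 (SE 0.21, 95% interval -0.69 to 0.27) became -0.02 without control replicate 3. The 3 Elavl genes together lay 0.66 above their 6-array means in control replicate 3 and 0.08 above them in Sirt1 inactive replicate 3, and below them by 0.29 in control replicate 1.

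Nova1 encodes a KH-domain splicing factor first known as the target of antibodies in a paraneoplastic movement disorder. Probe set 10400157 read 10.31, 10.23 and 10.40 in Sirt1 inactive cultures, against 10.40, 10.57 and 10.82 in control cultures. Sirt1 inactive replicate 3 and control replicate 1 had the same rounded value, and the other control arrays were above all Sirt1 inactive arrays. Means of 10.31 ± 0.09 in Sirt1 inactive and 10.59 ± 0.21 in control cultures (SD, n = 3 each) differed by -0.28 (SE 0.11, 95% interval -0.54 to -0.02; limma, unadjusted p = 0.038). The other probe set of the gene, 10400155, read 9.99, 10.14 and 10.19 in Sirt1 inactive cultures, against 10.02, 10.37 and 10.52 in control cultures, a difference of -0.20 (SE 0.13). Both probe sets were lower in 3 of 3 numbers, and the difference of the first was -0.17 without control replicate 3.

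Nova2, the family member most used in the cortex, read 8.88, 8.83 and 8.98 (probe set 10550514) in Sirt1 inactive cultures, against 8.94, 8.95 and 9.30 in control cultures. Sirt1 inactive replicate 3 lay above 2 of the control arrays, so the groups overlapped. The difference was -0.17 (SE 0.11, 95% interval -0.42 to 0.08), and -0.05 without control replicate 3.

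Celf4 is a brain protein that binds many synaptic transcripts and whose loss causes seizures in mice. It was the 1 gene of the 10 whose groups did not overlap, against 6.71% of all probe sets lower without overlap. It read 8.14, 7.95 and 8.05 (probe set 10457895) in Sirt1 inactive cultures, against 8.25, 8.28 and 8.21 in control cultures. Every Sirt1 inactive array was below every control array, and control replicate 3 was the lowest of the controls here. Means of 8.05 ± 0.10 in Sirt1 inactive and 8.25 ± 0.04 in control cultures (SD, n = 3 each) differed by -0.20 (SE 0.07, 95% interval -0.36 to -0.04), a level 0.871 times that of control. The unadjusted p was 0.022 (limma), rank 291 of 22961 probe sets, and an exact two-sided permutation test of the 6 arrays gave its minimum, p = 0.1. The difference was -0.22 without control replicate 3 and between -0.25 and -0.15 when each array was left out in turn.

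Celf3, a related brain protein that promotes the inclusion of exons, read 7.38, 7.41 and 7.48 (probe set 10494069) in Sirt1 inactive cultures, against 7.43, 7.69 and 7.73 in control cultures. Control replicate 1 lay among the Sirt1 inactive arrays, and the other controls were above them all. The difference of -0.20 (SE 0.09, 95% interval -0.41 to 0.02) was -0.14 without control replicate 3.

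The Rbfox genes differed least, by -0.06 to -0.12, with a median of -0.07 over the family, against -0.31 over the Elavl genes. Rbfox3 encodes NeuN, the nuclear antigen used to stain mature neurons. It read 7.11, 6.98 and 7.20 (probe set 10393594) in Sirt1 inactive cultures, against 7.20, 7.15 and 7.32 in control cultures. The groups overlapped and each Sirt1 inactive array was below the control of its number, with a difference of -0.12 (SE 0.08, 95% interval -0.31 to 0.07).

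Rbfox1, a splicing factor of neurons, heart and muscle, read 6.50, 6.69 and 6.69 (probe set 10433403) in Sirt1 inactive cultures, against 6.68, 6.67 and 6.74 in control cultures. Sirt1 inactive replicate 1 was low and the other 2 lay among the controls, for a difference of -0.07 (SE 0.07, 95% interval -0.24 to 0.10). Rbfox2, which acts in progenitors as well as neurons, read 9.30, 9.38 and 9.30 (probe set 10430145) in Sirt1 inactive cultures, against 9.36, 9.40 and 9.39 in control cultures. Its 6 arrays lay within 0.11 of each other, the narrowest range of the 10 genes, and the difference was -0.06 (SE 0.06, 95% interval -0.19 to 0.08). That interval leaves out any change of Rbfox2 of more than 0.19 in either direction, while the interval of Elavl4 reaches -1.21.

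**Figure D2:**
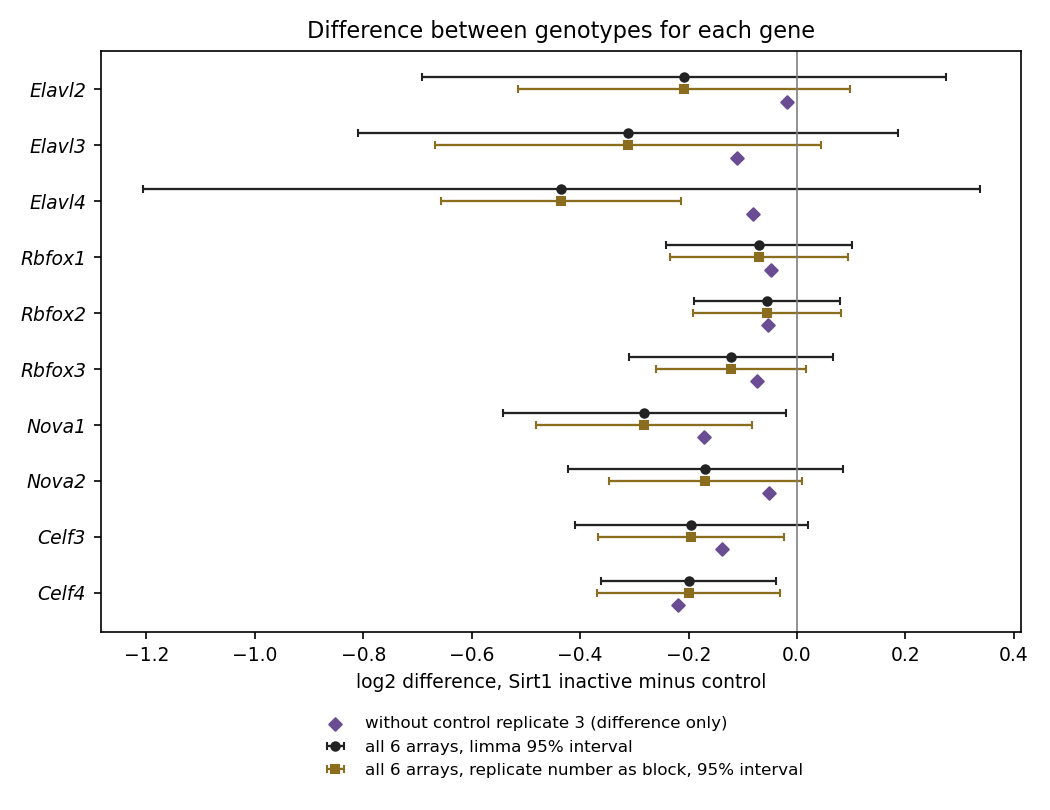
Log2 difference, Sirt1 inactive minus control (horizontal axis), for each gene (rows); black circles and bars are the limma estimate and 95% interval over 6 arrays, brown squares and bars the same with the replicate number as a block, and purple diamonds the difference without control replicate 3. All points lie below 0, the interval with no block excludes 0 for Nova1 and Celf4, and the Elavl diamonds lie at -0.02 to -0.11.

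Over the arrays the genes did not all follow each other. Among Elavl2, Elavl3, Elavl4, Nova1, Nova2 and Celf3, 6 genes grouped here after their values were seen, Pearson's r over 6 arrays ran from 0.72 to 0.95 in the 15 pairs. Elavl4 and Nova2 had r = 0.95, and r = 0.83 over the 5 arrays without control replicate 3. The 15 values ran from -0.01 to 0.89 without that array, the lowest for Elavl2 with Nova2. Rbfox3, outside this group, had r from 0.73 to 0.88 with Elavl3, Elavl4, Nova1 and Nova2, but 0.36 with Elavl2 and 0.62 with Celf3. Celf4 had r between -0.01 and 0.60 with the other 9 genes. These values describe 6 arrays that were normalized together, and all genes were read from the same 6 cultures.

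**Figure D3:**
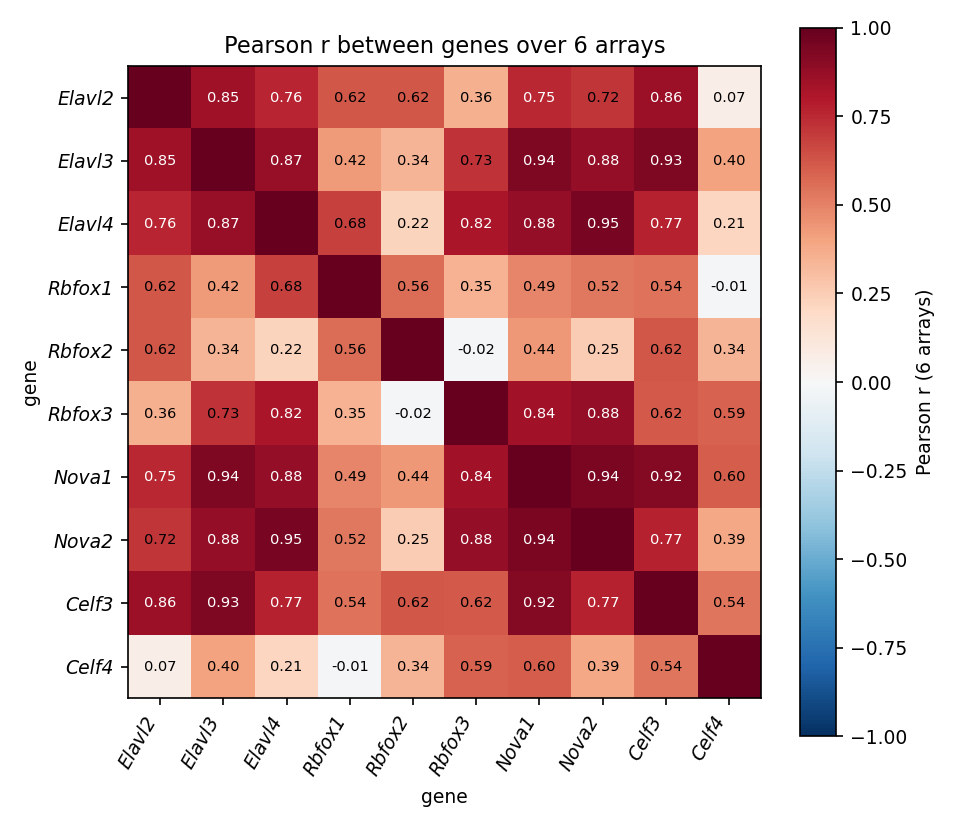
Pearson's r over 6 arrays for each pair of genes (rows and columns; red positive, blue negative, colour scale from -1 to 1). Elavl, Nova and Celf3 pairs reach 0.72 to 0.95, and the row of Celf4 stays between -0.01 and 0.60.

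Elavl4 had the widest range, and the 5 genes outside the set with the pattern most like it were taken among 2416 genes that ranged over at least 0.5. They were Trib1, a pseudokinase (r = 0.997 over 6 arrays), Mef2c, a transcription factor of neurons and muscle (0.991), Pitpnc1, a phosphatidylinositol transfer protein (0.989), Sh2b2, a signalling adaptor (0.988), and Crlf2, a cytokine receptor (0.988). Without control replicate 3 the r of these 5 genes ran from 0.964 to 0.995, over arrays that were also used to pick them. Trib1 read 8.51, 8.61 and 8.86 in Sirt1 inactive cultures, against 8.70, 8.73 and 9.13 in control cultures. Number 3 was its highest array in both genotypes, which follows from its being picked for likeness to Elavl4 over these arrays. Of the 2416 genes 254 had r above 0.9 with Elavl4 and 85 had r above 0.95.

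Relatives of these proteins outside the set were Elavl1, the widely made HuR, and Celf1, Celf2, Celf5 and Celf6. Of these 5 genes 4 were below 0 and none passed, with a median difference of -0.06, or 0.01 without control replicate 3. Celf5, of the brain-enriched branch, read 8.19, 8.14 and 8.26 in Sirt1 inactive cultures, against 8.29, 8.28 and 8.47 in control cultures, with no overlap and a difference of -0.15 (SE 0.07). It was the 1 of these 5 without overlap, against 6.71% of all probe sets lower without overlap. Celf2 differed by -0.12, Celf6 by -0.06 and Celf1 by 0.04.

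Other neuronal RNA-binding proteins, such as Khdrbs3, Srrm4 and the Cpeb and Mbnl proteins, were also below control on average. All 14 of these genes had a difference below 0, with a median difference of -0.07, and none passed. Without control replicate 3 the number below 0 was 10, with a median of -0.06. Khdrbs3, the STAR-family splicing factor T-STAR, read 10.46, 10.62 and 10.54 in Sirt1 inactive cultures, against 10.64, 10.70 and 10.87 in control cultures, a difference of -0.20 (SE 0.08) with no overlap. It was the 1 of these 14 without overlap, against 6.71% of all probe sets lower without overlap. Cpeb3, a regulator of poly(A) tails and translation at synapses, differed by -0.14, Srrm4, the activator of neuronal microexons, by -0.17 and Mbnl2, of the muscleblind family, by -0.12.

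RNA-binding proteins of progenitors and of cells in general, among them Ptbp1, which holds back neuronal exons in progenitors, and the stem cell proteins Msi1 and Msi2, were near 0. Of 27 measured genes in this list 10 were below 0 and 17 above, with a median of 0.02 and none past the test. Rbm39, a general splicing factor, read 11.20, 11.25 and 11.27 in Sirt1 inactive cultures, against 11.02, 11.15 and 11.08 in control cultures. Of the 27 genes it was the 1 whose groups did not overlap, at 0.16 (SE 0.06), against 2.62% of all probe sets higher without overlap. Igf2bp3 differed by 0.22, Ptbp1 by 0.06 and U2af1, of the splicing machinery, by -0.07.

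**Figure D4:**
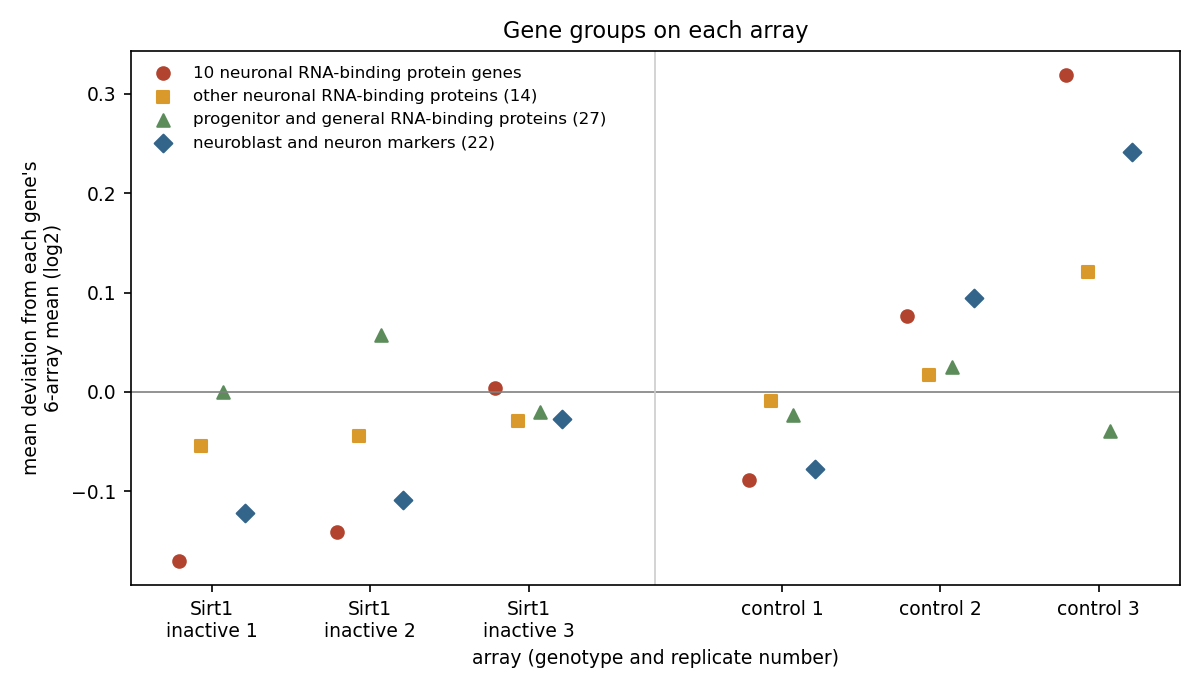
Mean deviation of a gene group from each gene's own 6-array mean (vertical axis, log2) on each array (horizontal axis, Sirt1 inactive left of the line, control right). The 10 genes reach 0.32 in control replicate 3 and the neuroblast and neuron markers 0.24, while progenitor and general RNA-binding proteins stay between -0.04 and 0.06.

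Messenger RNAs that neuronal Elavl proteins are known to bind were read next, from work in rodents and human cells. Of 12 measured genes 9 were below 0, with a median difference of -0.10 and none past the test. Without control replicate 3 the number below 0 was again 9, with a median of -0.08. Camk2a, a kinase of synapses, read 8.94, 8.80 and 9.03 in Sirt1 inactive cultures, against 9.21, 9.40 and 9.77 in control cultures. Its groups did not overlap, and the difference was -0.53 (SE 0.14; limma, unadjusted p = 0.0069). In all, 3 of the 12 were lower without overlap, against 6.71% of all probe sets. Gap43, a growth cone protein and the best-known target of HuD, differed by -0.31, Mapt, of axonal microtubules, by -0.39 and Marcks by -0.10.

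Transcripts spliced by Nova or Rbfox proteins can be followed here only by their total level, since 1 value per probe set says nothing of exon choice. Of 27 measured genes 23 were below 0, with a median of -0.06, and none passed. Without control replicate 3 the number below 0 was 19, with a median of -0.07. Snap25, of the vesicle fusion machinery, differed by -0.51 (SE 0.22), and the calcium channel genes Cacna1c, Cacna1b and Cacna1d by -0.37, -0.27 and -0.21. Control replicate 3 was the highest array for each of these, and the groups overlapped for every gene of the list. The 4 genes above 0 included Ank3 (0.24) and Nfasc (0.20).

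Markers of neuroblasts and neurons were, like the 10 genes, highest on average in control replicate 3. Of 22 measured markers 15 were below 0 and none passed, with a median of -0.17, or -0.10 without control replicate 3. Their mean level ran from 8.42 to 8.51 in Sirt1 inactive cultures, against 8.46 to 8.78 in control cultures, where the top value was that of replicate 3. For the 10 genes the mean level ran from 8.08 to 8.25 in Sirt1 inactive cultures, against 8.16 to 8.57 in control cultures, again with replicate 3 highest. Dcx, of migrating neuroblasts, read 6.95, 7.05 and 7.10 in Sirt1 inactive cultures, against 7.15, 7.25 and 7.64 in control cultures, a difference of -0.31 with no overlap. In all, 3 of the 22 markers were lower without overlap, against 6.71% of all probe sets. Prox1, a transcription factor of granule neurons, differed by -0.38 and Syt1, the calcium sensor of release, by -0.39. The 7 markers above 0 included Nefm (0.24), Nefl (0.16), Dlx1 (0.10) and Sox11 (0.09). Stmn2 read 6.94 in control replicate 3, its lowest array. RMA values have no zero, so no marker can be called absent, and the part of neuronal cells in the differences of the 10 genes was not tested.

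Markers of glia and of other cells that such cultures could hold were read as well. Astrocyte markers had a median difference of 0.09 (0.01 without control replicate 3) with 3 of 10 below 0. In control replicate 3, where the Elavl genes were highest, their deviation from the 6-array mean was -0.53 on average, with a median of -0.23. The markers were uneven there. Gfap read 7.41 on that array, against 9.55 to 10.25 on the others, while Sox9 was at its highest, 11.79. Oligodendrocyte progenitor markers had a median of -0.07 with 5 of 9 below 0, and of 0.12 with 3 of 9 below 0 without control replicate 3. The groups did not overlap for 4 of these 9, which were higher in Sirt1 inactive cultures, against 2.62% of all probe sets higher without overlap. Those 4 were Gpr17 (0.75), C1ql1 (0.44), Sox10 (0.28) and Pdgfra (0.79). Over all arrays the other 5 were below 0, down to -0.24. This list was made with earlier results of these data known, so the count is a description only. Myelinating oligodendrocyte markers had a median of -0.10, and -0.21 without control replicate 3, with 7 of 7 below 0 in both cases. Neural stem cell markers had a median of 0.00 with 4 of 9 below 0 and a mean level between 10.7 and 10.8 on every array, as far as the labelled cell type can be checked by them. Microglia markers had a median of -0.09 (-0.05 without control replicate 3), endothelial and mural markers -0.05 and ependymal markers -0.09, and no gene of these lists passed. The groups did not overlap for 4 of the 8 microglia markers, lower in Sirt1 inactive cultures, against 6.71% of all probe sets. Those were Tmem119 (-0.19), Itgam (-0.16), Trem2 (-0.14) and P2ry12 (-0.17), and this count too is a description only.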

How the data were processed

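RNA of 6 cultures, 3 per genotype, was hybridised to whole-transcript Affymetrix arrays. The authors deposited a log2 value for each probe set on each array, computed by RMA per the submitters' processing notes (version not given in the sources used here). The log2 scale was read from the values. RMA compresses the differences of dim probe sets, and precision is limited by the number of arrays, with a median SE of 0.080.

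The table has 34760 probe sets and 0 columns of other samples. The platform annotation pairs 21640 with a single gene and 1321 with several; these 22961 were tested. Differences (Sirt1 inactive minus control) were fitted with limma 3.58.1 in R 4.3.3, with genotype as the only term, moderated by empirical Bayes, and p-values were two-sided and Benjamini-Hochberg adjusted over all tested probe sets. The fit was run on simulated data with independent noise, as a check of the code and not of its power for differences as small as those here. The titles do not say what arrays of the same number share. Same-numbered arrays deviated together from their group means (r = 0.47, 0.36 and 0.27), so the numbers were taken to pair the samples. That choice came from the same values that were then fitted. The number was a block in an alternative fit. Other alternatives left out arrays, weighted or rescaled them, or changed the tested probe sets.

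The genes and lists were chosen with earlier results of these data known. Named are the 10 genes, Sirt1, up to 4 genes with the smallest unadjusted p per list (other relatives, neuronal and general RNA-binding proteins, Elavl-bound and Nova- or Rbfox-spliced transcripts, and cell type markers), and the 5 genes most like the gene with the widest range. Some other genes of the lists are named beside them.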

Additional observations from a re-analysis of the deposited data

How the results depend on the processing

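The 10 genes were below 0 and short of the threshold in all 145 combinations of a gene and an alternative that could be computed. Several alternatives, such as the replicate block, the prior and the choice of tested probe sets, leave the difference itself unchanged. Their direction was therefore fixed in advance, and all alternatives reuse the same arrays. Only 5 of the genes remained when probe sets below the median brightness were left out. The median difference of the 10 genes, -0.20, ran from -0.26 to -0.08 when single arrays were left out, the value nearest 0 without control replicate 3. It was -0.16 with array weights, -0.18 with array medians subtracted, -0.17 after a repeated quantile normalization and -0.15 in a fit of numbers 1 and 2 with the replicate block. The count of probe sets past the threshold was 0 with and without the replicate block, and 0 when any single array was left out. At an unadjusted p under 0.05 limma gave 604 lower and 226 higher probe sets, and 1166 and 575 with the replicate block. In that fit of numbers 1 and 2 with the block 19 probe sets passed, none of them of the 10 genes; the cause was not tested. Elavl4 was the most dependent on the choice of arrays, at -0.68 when Sirt1 inactive replicate 3 was left out, -0.08 when control replicate 3 was, and -0.11 under array weighting. Arrays carry no read depth, and RMA values do not show whether a dim probe set lies above background.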
